A study of Homo sapiens with 4 samples.

Results

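NEURL3, CD300LB and DMTN are 3 of the 58735 genes measured in the GBM cell lines U251 and U87, and they were picked by name because they had few or no reads in a Control library and many more after Bru. Bru is brusatol, a quassinoid from a Chinese herb. U251 and U87 are established human glioblastoma lines. Each line gave a Control library and a library of cells treated with Bru, for 48 h at the IC50 by the study's methods, so that there were 4 libraries in all and 1 per condition. With 1 library per condition no difference has a replicate check, and all intervals below cover counting error only. The ratios of Bru to Control were themselves the reason for the choice, so they are given as a description without a test.

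The choice by name did not describe the 3 genes equally well. NEURL3 had 0 reads in both Control libraries and a measurable level in both Bru libraries. CD300LB had 0 reads in both Control libraries but a measurable level only in the Bru library of U87. DMTN was near-silent only in the Control library of U87, whereas in U251 it was well expressed in the Control library and lower in the Bru library.

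The 3 genes belong to unrelated families. NEURL3 encodes a member of the neuralized family, proteins with a neuralized repeat. The founding member is an E3 ubiquitin ligase that promotes endocytosis of Notch ligands. CD300LB encodes an activating receptor of the CD300 family, immunoglobulin-like receptors of myeloid cells whose genes lie in a cluster, and it signals through adaptors such as TYROBP. DMTN encodes dematin, a protein with a villin headpiece that bundles actin and ties it to the spectrin and adducin skeleton under the erythrocyte membrane.

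Promoter sequences from RefSeq on GRCh38.p14 were held for 2 of the 3 genes, as 2 windows for NEURL3 and 1 for CD300LB. They are shown because both genes had 0 reads in the Control libraries and reads in a Bru library. Each line holds the 250 bases before the start site, 5′ to 3′ on the gene's minus strand, with the letters that matched a searched motif in capitals. The windows lie at chr2:96508110-96508359 for the first NEURL3 start, at chr2:96505358-96505607 for the second and at chr17:74531476-74531725 for CD300LB.
NEURL3 start 1: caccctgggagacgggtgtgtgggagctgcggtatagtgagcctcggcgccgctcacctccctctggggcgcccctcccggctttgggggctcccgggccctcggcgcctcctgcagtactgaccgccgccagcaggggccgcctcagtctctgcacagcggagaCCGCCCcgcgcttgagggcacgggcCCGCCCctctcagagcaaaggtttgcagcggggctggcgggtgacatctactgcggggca
NEURL3 start 2: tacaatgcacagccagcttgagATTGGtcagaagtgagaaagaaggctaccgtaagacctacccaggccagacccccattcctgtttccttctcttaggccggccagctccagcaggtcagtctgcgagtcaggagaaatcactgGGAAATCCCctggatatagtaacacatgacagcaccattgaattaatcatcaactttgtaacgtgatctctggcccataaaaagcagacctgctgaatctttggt
CD300LB: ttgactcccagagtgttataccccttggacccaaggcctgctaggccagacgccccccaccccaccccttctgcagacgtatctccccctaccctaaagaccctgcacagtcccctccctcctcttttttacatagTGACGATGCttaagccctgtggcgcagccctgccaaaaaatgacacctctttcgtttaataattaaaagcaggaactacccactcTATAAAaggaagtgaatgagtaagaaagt

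The motifs were searched on both strands in the 250 bases before and 50 bases after each start, in 14 kinds. The capitals in the first NEURL3 window mark the GC box GGGCGG on the minus strand of the window, found 85 and 60 bases before the start. A GC box was held by 45.0% of all 35116 windows. In the second NEURL3 window the capitals mark an NF-kB motif, GGGANTTCC, 105 bases before the start, and a CCAAT box, CCAAT, 228 bases before it. Both are on the minus strand of the window, so the printed letters are the reverse complement. The NF-kB motif was in 1.85% of all windows and the CCAAT box in 34.6%. In the CD300LB window the capitals mark an antioxidant response element, TGACNNNGC, 114 bases before the start, and a TATA box, TATAAA, 29 bases before it. These motifs were in 13.3% and 11.5% of all windows. No capital letters overlap those of another motif, and a match says only that these letters are there. No motif was held by the windows of both genes. The first NEURL3 window had a GC content of 72.4% with 22 CpG dinucleotides, above the median of 58% over all windows. The second NEURL3 window had 48.4% and 4 CpG, and that of CD300LB 50.4% and 5 CpG. The second NEURL3 window lies within an intron of a longer annotated NEURL3 transcript. Which start was used cannot be read from values per gene.

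NEURL3 (ENSG00000163121, chr2:96497643-96508109, minus strand, GRCh38) had 0 reads in the Control library and 73 in the Bru library of U251, and 0 and 53 in those of U87. Its levels in the same order were 0, 1.58, 0 and 1.22 FPKM, that is fragments scaled to gene length and library size. In these bulk libraries, more cells expressing a gene and more RNA per cell cannot be told apart. Both Bru libraries thus lay above both Control libraries, and the counting intervals of the reads (57.2 to 91.8 in U251 Bru, 39.7 to 69.3 in U87 Bru) did not reach the 3.69 reads that a count of 0 leaves possible. With Control set at the floor of 3 reads, NEURL3 was 27.5-fold higher in the Bru library of U251 and 18.3-fold higher in that of U87. The exact 95% lower limits of these ratios, from the reads as counted, were 21.8 and 14.4. The level in U251 Bru was 1.29 times that in U87 Bru, with an exact interval of 0.896 to 1.88 that includes 1. In U251 Bru, NEURL3 stood above 50.8% of the 19951 protein-coding genes by FPKM, and in U87 Bru above 49.4%. These shares count genes at 0 reads. Of the 15161 protein-coding genes with a read in U251 Bru, 9819 stood higher than NEURL3, and of the 15428 in U87 Bru, 10092.

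CD300LB (ENSG00000178789, chr17:74521174-74531474, minus strand) had 0 reads in the Control library and 2 in the Bru library of U251, against 0 and 245 in those of U87. In FPKM this was 0, 0.0397, 0 and 5.17. The Bru library of U87 stood alone, and both U251 counts were under the floor of 3 reads, so no fold of Bru to Control is given for U251. In U87 the level was 84.8-fold higher in Bru than in Control set at that floor. The exact 95% lower limit of the ratio was 68.4. No other of the 58735 genes had a larger log2 ratio in U87. Between the treated libraries, CD300LB was 130-fold higher in U87 than in U251, with an exact interval of 35.7 to 1083 that is wide because the U251 library held 2 reads. It stood above 66.8% of protein-coding genes in U87 Bru, and 6622 of the 15428 with a read there stood higher.

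DMTN (ENSG00000158856, chr8:22048995-22082527, plus strand) had 1133 reads in the Control library and 662 in the Bru library of U251, against 1 and 50 in those of U87. Its levels were 12.1, 7.99, 0.0124 and 0.642 FPKM. Both U251 libraries lay above both U87 libraries, and the directions in the lines were opposite. In U87 the ratio of Bru to Control was 51.9, with an exact interval of 8.90 to 2091 that is wide because the Control library held 1 read. In U251 the ratio was 0.661, with an interval of 0.600 to 0.728, so that the gene was 1.51-fold lower in Bru. The U251 Control library held 976 times the level of the U87 Control library (exact interval 175 to 38589), and after Bru the U251 library still held 12.4 times that of U87 (9.32 to 16.9). At its Bru level in U87, DMTN stood above 44.7% of protein-coding genes, against 80.2% and 73.7% in the U251 Control and Bru libraries. Of the 15428 protein-coding genes with a read in U87 Bru, 11027 stood higher than DMTN.

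**Figure D1:**
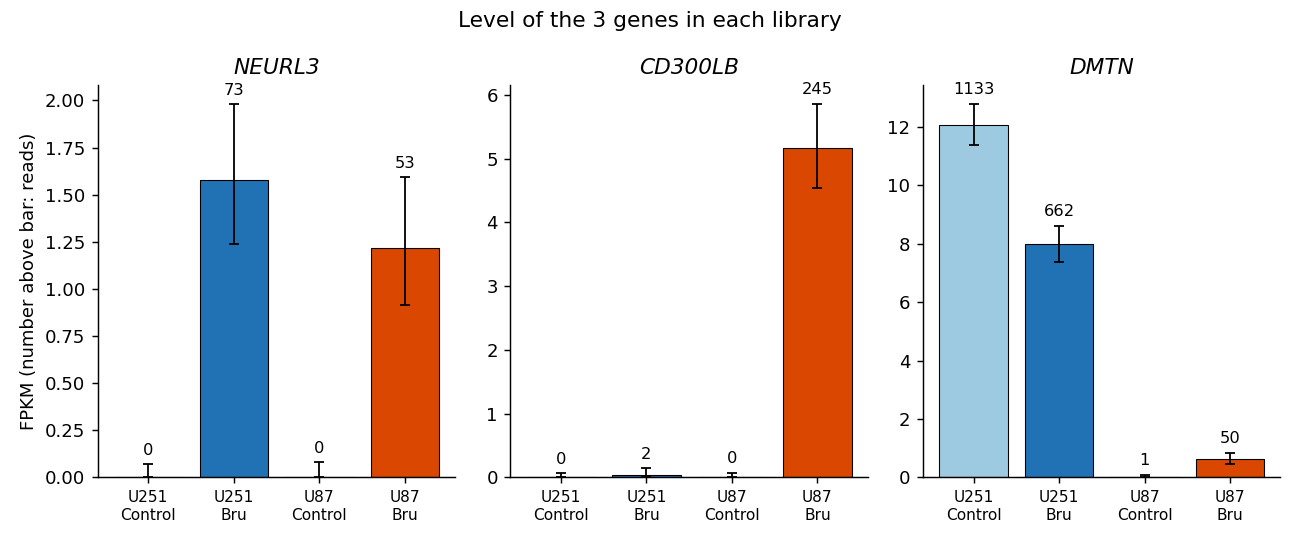
FPKM of NEURL3, CD300LB and DMTN in the 4 libraries, with a y axis of its own for each gene. Bars are single libraries, error bars are exact 95% Poisson intervals of the reads, and the number above each bar is its reads. NEURL3 is seen in both Bru libraries (73 and 53 reads), CD300LB in U87 Bru (245 reads), and DMTN mainly in U251 (1133 and 662 reads).

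On a log2 scale of FPKM + 0.1, which understates low genes, the ratio of Bru to Control was 4.07 in U251 and 3.72 in U87 for NEURL3, 0.48 and 5.72 for CD300LB, and -0.59 and 2.72 for DMTN. Among the 12949 genes with a mean of at least 1 FPKM over the 4 libraries, 3.36% had a log2 ratio above 1 and 5.44% below -1 in U251. In U87 these shares were 1.92% and 1.41%. NEURL3 had a mean of 0.699 FPKM and is not among the 12949 genes, while CD300LB passed that limit only through its U87 Bru library. The median log2 ratio of the 12949 genes was -0.03 in U251 and -0.04 in U87.

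A gene was called switched on when it was under 0.5 FPKM in the Control library and reached 1 FPKM and a 4-fold higher level in the Bru library. In U251 this held for 49 of 43904 near-silent genes (0.112%), and in U87 for 38 of 43872 (0.0866%). NEURL3 met the rule in both lines and CD300LB in U87. DMTN met it in neither line, since its U87 Bru level of 0.642 FPKM is under 1 and its U251 Control level is not near-silent. Only 2 genes met it in both lines, which is 4.08% of the U251 list and 5.26% of the U87 list. They were NEURL3 and DHRS2, a short-chain dehydrogenase/reductase, which had 36 and 589 reads in U251 Control and Bru and 30 and 617 in U87 Control and Bru.

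Counted in reads, 3891 protein-coding genes had 0 reads in both Control libraries. Of these, 2985 stayed at 0 in both Bru libraries, and 10 had more than 3 reads in each Bru library. NEURL3 had the highest smaller Bru count of these genes (53 reads), followed by the 12 reads of RFPL4A, a gene of the RFPL family. COLEC11, a collectin of innate immunity, had 9 and 12 reads in U251 Bru and U87 Bru. CD300LB had the highest count in a single Bru library. KIF1A, a kinesin that carries synaptic vesicle precursors along axons, came next with 121 reads in U87 Bru and 4 in U251 Bru. This count was chosen after the values were seen.

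**Figure D2:**
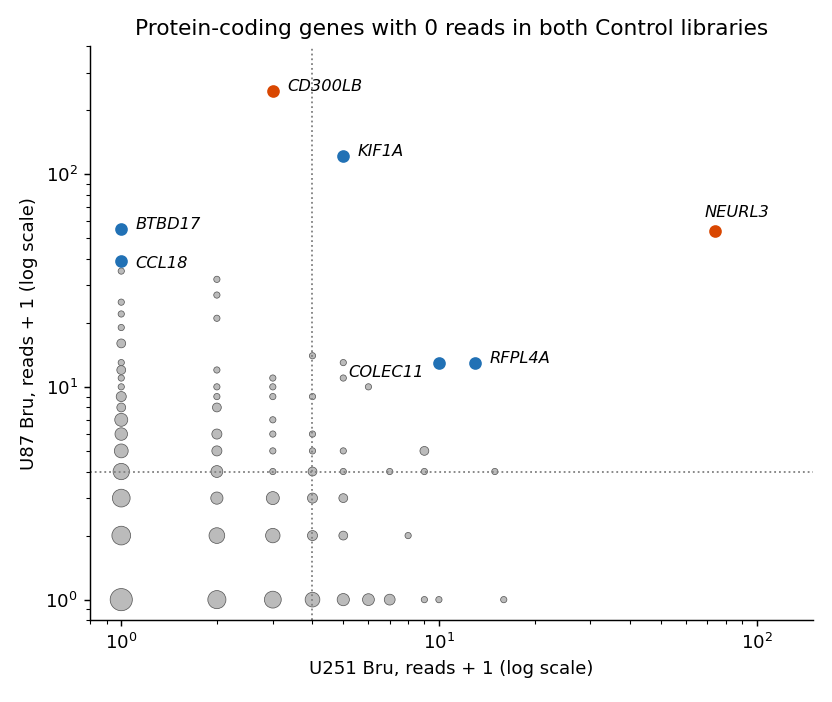
Reads + 1 in U251 Bru (x axis) and U87 Bru (y axis), both on log scales, of the 3891 protein-coding genes with 0 reads in both Control libraries. Point area grows with the number of genes at a position, dotted lines mark 3 reads, and orange points are NEURL3 and CD300LB. NEURL3 lies alone to the upper right (73 and 53 reads) and CD300LB at the top left (2 and 245 reads).

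Over all genes with 0 reads in Control, 0.852% had more than 3 reads in Bru in U251 and 1.22% in U87. The genes around CD300LB were then read in the same way, as a count chosen after the values were seen. Within 500 kb on either side of CD300LB lay 39 genes, of which 25 had 0 reads in U87 Control, and 8 of these 25 had more than 3 reads in U87 Bru. In U251, 26 of the 39 had 0 reads in Control and 0 of these 26 had more than 3 in Bru. The 8 genes in U87 held 6 to 54 reads in Bru. BTBD17, which encodes a secreted protein with a BTB domain, had 54 reads in U87 Bru and 0 in the other 3 libraries. CD300A, an inhibitory receptor of the CD300 family, had 18 reads in U87 Bru and 0 in the others. This is 6.23-fold higher than U87 Control set at the floor, and the exact lower limit of the ratio was 4.56. GPR142, a G protein-coupled receptor of pancreatic islets, had 15 reads in U87 Bru and 0 in the others. Well-expressed genes of the same window did not stand apart in U87, where 0 of the 7 genes with a mean of at least 1 FPKM had a log2 ratio above 1 or below -1 and their median was 0.11. CD300C, which is next to CD300LB, had 13 reads in both U87 libraries, and GPRC5C, an orphan receptor between CD300LB and BTBD17, had 38 in Control and 36 in Bru. No other annotated gene overlaps CD300LB, NEURL3 or DMTN.

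**Figure D3:**
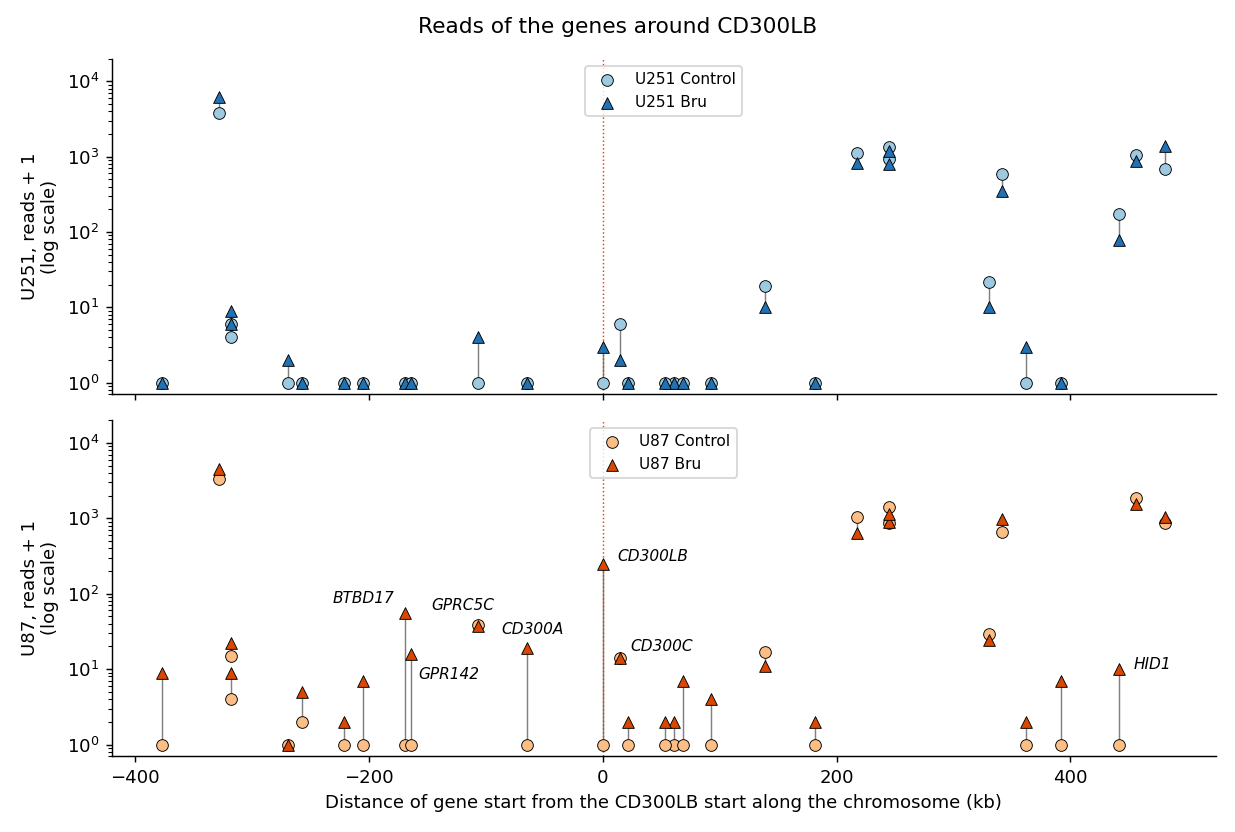
Reads + 1 on a log scale of the genes within 500 kb of CD300LB, at the distance in kb of their start from its start, in U251 (upper panel) and U87 (lower panel). Circles are Control libraries and triangles Bru libraries, a line joins the values of a gene, and genes with 0 reads in all 4 libraries are left out. In U87, CD300LB (245 reads), BTBD17 (54), CD300A (18) and GPR142 (15) lift off the baseline, while in U251 the same genes stay at 0 to 2 reads.

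By chromosome, the share of genes with 0 reads in U87 Control that had more than 3 reads in U87 Bru was highest for chromosome 17, which carries CD300LB, at 2.97% (45 of 1517), and next for chromosome 19 at 2.91% (43 of 1480). CD300LB is itself counted among the 45 genes, and without it chromosome 17 had 44 of 1516 (2.90%), no longer above chromosome 19. The 8 genes within 500 kb of CD300LB that had more than 3 reads in U87 Bru are among these 44. The chromosome count thus partly repeats the count around CD300LB. In U251 chromosome 17 ranked 15 with 0.805% (12 of 1491). Chromosome 2, which carries NEURL3, had 1.25% in U87 and 0.914% in U251. CCL18, a myeloid chemokine on chromosome 17, had 38 reads in U87 Bru and 0 in the other libraries. The reverse count, of genes with 0 reads in U87 Bru and more than 3 in U87 Control, was 0.913% for chromosome 17 (13 of 1424) and 0.658% over all genes. No test was made of the chromosomes, which were looked at after the values were seen.

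**Figure D4:**
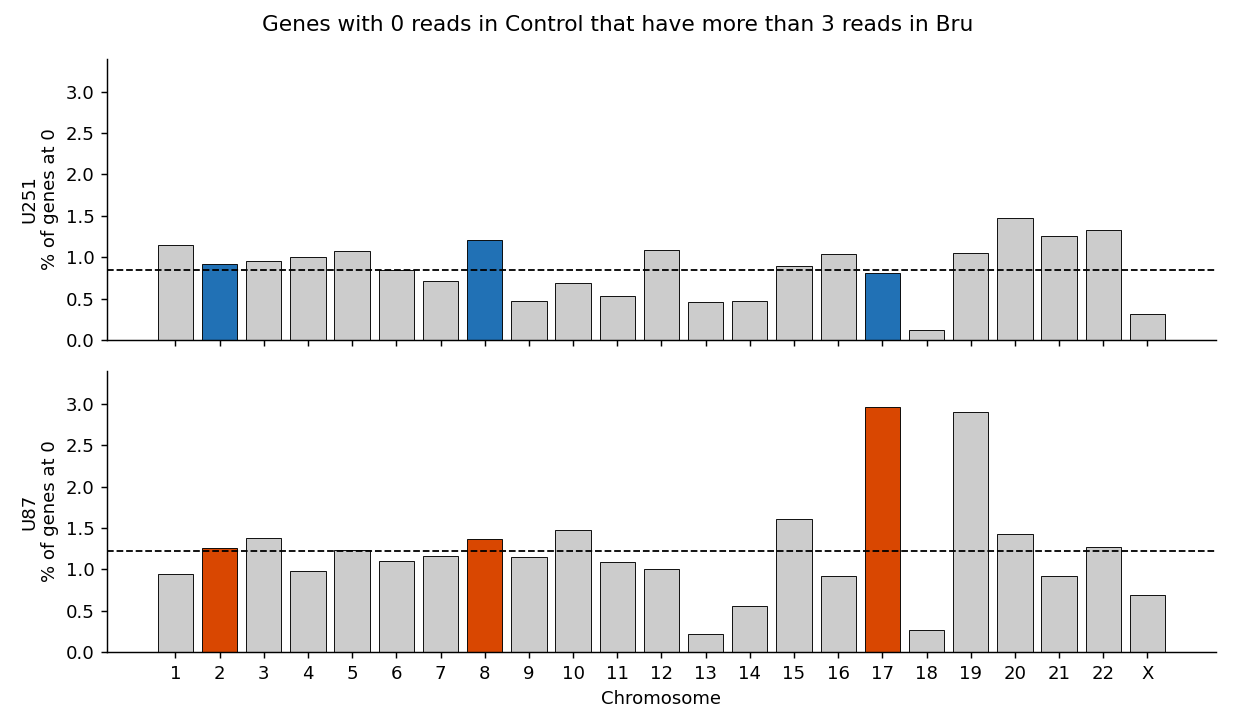
Percent of the genes with 0 reads in Control that had more than 3 reads in Bru, for each chromosome in U251 (upper panel) and U87 (lower panel), with a dashed line at the share over all genes. Coloured bars are the chromosomes of NEURL3 (2), DMTN (8) and CD300LB (17). The selected genes are counted in the bars. Chromosomes 17 and 19 stand at 2.97% and 2.91% in U87, against 1.22% over all genes.

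The neighbours of NEURL3 did not share its pattern. Among the 10 genes nearest to it, 5 on each side, 6 had a mean of at least 1 FPKM, and their log2 ratios ranged from -0.80 to 0.50 for U251 and from -0.79 to 0.11 for U87. The nearest of these, ARID5A, which encodes an RNA-binding protein that stabilises inflammatory transcripts, had 526 and 264 reads in U251 Control and Bru and 215 and 117 in U87, a log2 ratio of -0.80 and -0.79. NCAPH, a condensin subunit on the other side, had -0.61 and -0.13. Within 500 kb of NEURL3, 12 genes had 0 reads in U251 Control and 0 of them had more than 3 in Bru, and in U87 this was 1 of 12, DUSP2, a phosphatase of MAP kinases.

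FGF17, the fibroblast growth factor gene 186 bases from DMTN, had 1, 1, 0 and 3 reads in U251 Control, U251 Bru, U87 Control and U87 Bru. HR, which encodes the corepressor hairless, had 466 and 370 reads in U251 Control and Bru and 4 and 11 in U87, so that it too was far lower in U87. NUDT18, a nucleotide hydrolase, had 210 and 184 reads in U251 and 131 and 61 in U87, with a log2 ratio of -1.01 in U87. The log2 ratio of HR was -0.15 in U251 and 0.46 in U87. XPO7, FAM160B2 and REEP4, the other expressed neighbours of DMTN, lay between -0.75 and 0.14 on the log2 scale in both lines.

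Of the 6 other CD300 genes, none reached a mean of 1 FPKM. CD300A is described above. In U251 Control, U251 Bru and U87 Control 5 of the 6 had 0 reads, whereas in U87 Bru all 6 had at least 1 read, of which CD300E and CD300LG had 3 and CD300LD and CD300LF 1. Their summed reads were 5, 1, 13 and 39 in U251 Control, U251 Bru, U87 Control and U87 Bru, of which CD300C gave all in the first 3. TYROBP, the adaptor that CD300LB pairs with, had 0 reads in all 4 libraries. HCST, an adaptor with a motif for phosphoinositide 3-kinase, had 0, 1, 4 and 2 reads, and SYK, the kinase that such adaptors recruit, had 0, 0, 0 and 2. FCER1G, the Fc receptor gamma chain, had 0, 0, 7 and 6 reads. The general signalling partners were expressed in all libraries, with GRB2 at 45.7, 44.2, 34.0 and 34.0 FPKM and the phosphatase PTPN11 at log2 ratios of 0.14 and 0.10. Of 11 adaptors and partners 4 had a mean of at least 1 FPKM and 0 of these passed a log2 ratio of 1 in either direction, and their median was 0.02 for U251 and 0.00 for U87. TLR4, the receptor of lipopolysaccharide, had the largest of these ratios with -0.69 in U251 and -0.67 in U87. INPP5D, an inositol phosphatase of blood cells, had 2, 0, 4 and 35 reads and was under that limit.

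Since CD300LB is a myeloid receptor, the 12 myeloid markers were read beside it. None reached a mean of 1 FPKM, and their summed level was 0.763, 1.38, 3.52 and 3.61 FPKM in U251 Control, U251 Bru, U87 Control and U87 Bru. Most of this level in U87 came from CSF1R, the receptor of a macrophage growth factor, with 123 and 94 reads in U87 Control and Bru, and from CD33, a sialic acid-binding receptor, with 107 and 116. CD68, a macrophage lysosomal protein, had 20 and 16 reads and LAPTM5, a lysosomal protein of blood cells, 32 and 18. PTPRC, the pan-leukocyte marker CD45, had 3 and 2 reads in U251 and 0 in both U87 libraries, and AIF1, FCGR3A and TYROBP had 0 in all 4. ITGAM, a myeloid integrin chain, had 1 and 13 reads in U251 Control and Bru and 8 and 37 in U87. CD14 had 13 and 23 reads in U251 and 3 and 8 in U87. SPI1 had 0 and 1 reads in each line, and LYZ had 0 and 2 in U87 and 0 in both U251 libraries. In U251 Control and Bru, CD33 had 10 and 27 reads, CSF1R 20 and 18, LAPTM5 10 and 5, and CD68 0 and 2. The part of other cells in the CD300LB reads was not tested beyond these levels. VIM, the mesenchymal marker, was at 701, 606, 669 and 633 FPKM. Other glioma and mesenchymal markers were lower in U251 Bru than in U251 Control. In U87 all of these but SOX2 were lower in Bru, though CD44 moved little, at 114.6 and 109.4 FPKM in Control and Bru. In U251 Control and Bru, CD44 stood at 125.5 and 94.5 FPKM. NES (nestin) had 14578 and 5214 reads in U251 Control and Bru and 147 and 55 in U87, with log2 ratios of -1.30 and -1.23, and FN1 (fibronectin) had log2 ratios of -1.45 and -1.58. GFAP, the astrocyte intermediate filament, had 614 and 243 reads in U251 and 47 and 31 in U87. SOX2, a stem cell factor of glioma, was at 128.8 and 91.2 FPKM in U251 and had 0 and 2 reads in U87. Of the 6 lung alveolar markers none reached a mean of 1 FPKM, with summed levels of 0.982, 0.580, 0.238 and 0.218 FPKM, most of it in U251 from NKX2-1, a lung and forebrain transcription factor, with 58 and 21 reads.

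Of the 4 other neuralized genes, NEURL1B and NEURL4 had a mean of at least 1 FPKM. NEURL1B, a close relative of neuralized that also acts on Notch ligands, had 411 and 135 reads in U251 Control and Bru and 577 and 523 in U87. Its ratio of Bru to Control was 0.372 in U251 (exact interval 0.304 to 0.453), opposite in direction to NEURL3, and 0.941 in U87 (0.834 to 1.06). NEURL4, a centrosomal protein, had log2 ratios of 0.10 and 0.00. NEURL2, a ligase subunit of muscle, had 3, 12, 24 and 27 reads in the order of the libraries above, and NEURL1 had 1, 3, 16 and 17. Of the 7 Notch ligands and mind bomb ligases, 3 passed the limit and 0 changed 2-fold, with medians of -0.06 in U251 and -0.02 in U87. MIB1, a mind bomb ligase, had log2 ratios of -0.19 and -0.02. JAG1, the most expressed ligand, had 8.97 and 9.60 FPKM in U251 Control and Bru and 2.35 and 2.75 in U87.

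DMTN was set beside 20 other genes of the erythrocyte membrane skeleton, 13 of which had a mean of at least 1 FPKM. Their median log2 ratio was -0.26 in U251, where 3 were higher and 9 lower in Bru, and -0.09 in U87, where 6 were higher and 7 lower. Among these 13, a log2 ratio below -1 was seen only for ADD3, the gamma adducin subunit, with -1.07 in U251. Its ratio in U87 was -0.09, and its levels were 12.6 and 5.92 FPKM in U251 Control and Bru and 9.11 and 8.55 in U87. ANK1, the erythroid ankyrin, with 405 and 169 reads in U251 Control and Bru, lay at the limit of -1, with a ratio from the reads of 0.472 (exact interval 0.392 to 0.566), and had 169 and 165 reads in U87. TMOD1, with a mean under 1 FPKM, had 88 and 40 reads in U251 Control and Bru and 81 and 35 in U87. Its log2 ratios were -0.85 and -1.03. SPTB, also under that mean, had 59 and 18 reads in U251 and 12 and 7 in U87. ADD2, the beta adducin subunit, was like DMTN far lower in U87, with 3350 and 2104 reads in U251 Control and Bru and 0 and 1 in U87. The list did not share this line difference as a whole. GYPC had 0 reads in U251 Control and Bru and 869 and 885 in U87. EPB41L1 had 1.52 and 2.02 FPKM in U251 Control and Bru and 12.4 and 9.59 in U87. SLC2A1, the glucose transporter that dematin links to the skeleton, had 92.9 and 53.6 FPKM in U251 and 12.1 and 12.5 in U87. EPB41, protein 4.1, had log2 ratios of -0.25 in both lines. Of the other villin headpiece proteins, SVIL (supervillin) had -0.83 and -0.30 and ABLIM1, an actin-binding LIM protein, 0.57 and 0.04, and 0 of the 3 expressed ones passed 2-fold.

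The 12 erythroid markers were near 0 in all libraries. Their summed reads were 0, 1, 10 and 5 in U251 Control, U251 Bru, U87 Control and U87 Bru, and HBA1, HBA2, AHSP, EPB42 and SLC4A1 had 0 in all 4.

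**Figure D5:**
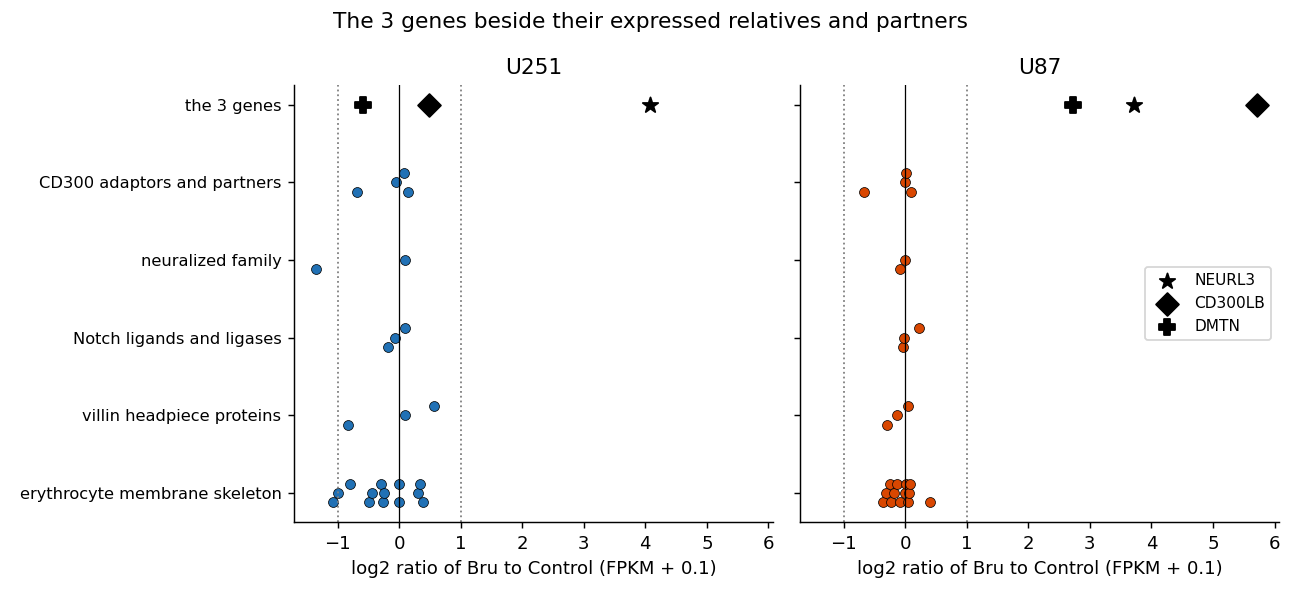
Ratio of Bru to Control, on a log2 scale of FPKM + 0.1, in U251 (left) and U87 (right) of the 3 genes (black symbols) and of their relatives and partners with a mean of at least 1 FPKM (1 point per gene). The CD300 family is not drawn because none of its 6 other genes reached that mean. Dotted lines mark log2 ratios of -1 and 1, and the related genes shown for U87 lie between them. The 3 genes were chosen for their ratios, and NEURL3 is drawn although its mean is under 1 FPKM. CD300A and INPP5D, at 2.27 and 1.40 in U87, are under that mean and not drawn. The same holds for TMOD1, at -1.03 in U87, and NEURL2, at 1.51 in U251.

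The protein-coding genes nearest to each of the 3 in level over the 4 libraries, by Euclidean distance on log2(FPKM + 0.1), were named as a description. For NEURL3 they were AC021097.3 (1.34), RFPL4A (1.44), HIST1H4C (2.31), C19orf38 (2.36) and GNG3 (2.57). RFPL4A had 0, 12, 0 and 12 reads in U251 Control, U251 Bru, U87 Control and U87 Bru. For CD300LB they were BTBD17 (1.61), CCL18 (1.73), RFPL4AL1 (1.77), PRR20G (1.85) and PPY (1.88), of which the first 3 had 0 reads in the other 3 libraries. BTBD17, CCL18 and PPY lie on chromosome 17. For DMTN they were TUBB2B (1.44), CCNA1 (1.45), H2AFY2 (1.59), C6orf141 (1.64) and HOXB9 (1.68), all higher in U251 than in U87. TUBB2B, a neuronal beta tubulin, had 612 and 352 reads in U251 Control and Bru and 8 and 22 in U87, and a log2 ratio of -0.61 in U251.

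By the switched on rule, the 5 protein-coding genes with the largest log2 ratios in U251 were NEURL3, HIST1H4C (11 Bru reads), DHRS2, MAGED4 and GALR2. MAGED4, a MAGE family gene, had 9 and 171 reads in U251 Control and Bru, and GALR2, a galanin receptor, 2 and 35. In U87 they were CD300LB, BTBD17, CCL18, RFPL4AL1 (24 Bru reads) and DHRS2.

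Stretches of 50 bases of the annotated transcripts were compared between genes. For CD300LB 0 of 2670 stretches and for DMTN 0 of 4962 were shared with another gene. For NEURL3, 34 of 2543 stretches (1.34%) occurred in transcripts of 178 other genes. How many of its reads fell on these stretches cannot be read from values per gene. The libraries held 17083896 to 21453561 reads on genes, and 3 reads corresponded to 0.0573 to 0.0690 FPKM for NEURL3, 0.0526 to 0.0634 for CD300LB and 0.0320 to 0.0385 for DMTN.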

How the data were processed

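RNA of U251 and U87 cells was sequenced as Control and after Bru, as paired-end reads from a library kit of NEB, with 1 library per condition. The submitters' processing notes name HISAT2 2.0.5, StringTie 1.3.3b, featureCounts 1.5.0-p3 and DESeq2 1.16.1, and the build hg18. The gene coordinates in the files, however, are those of GRCh38, since all 58735 genes have the start and end of GENCODE release 29. The authors deposited FPKM per gene, scaled to the gene length and to a library size. Reads were recovered as FPKM times gene length over the step of the library, and 100% of values were whole within 0.01 reads. The library sizes were 20974002, 18533374, 18070193 and 17406238 for U251 Control, U251 Bru, U87 Control and U87 Bru. On simulated FPKM the reads came back with 0 wrong values.

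Log2 ratios were taken on FPKM with a pseudocount of 0.1, and genes were counted at a mean of at least 1 FPKM. Ratios have exact 95% Clopper-Pearson intervals of the share of reads in a library, scaled to the library sizes, and reads have exact Poisson intervals. A fold against 0 reads used a floor of 3 reads. With 1 library per condition no test across genes was made and no count model was fitted to the recovered reads. Python 3.11.15, pandas 2.3.3, numpy 2.4.6 and scipy 1.17.1 were used.

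The 3 genes, the 6 lists of related genes, the 4 marker lists and the motifs were chosen with earlier results of these data known. Other genes were named if they were past 2-fold or most expressed in a list, neighboured a member, were among the 5 nearest in level, or had the 5 largest ratios among protein-coding genes switched on. Not every gene that meets this rule is named. Other list genes, the genes near CD300LB and the genes at 0 in both Control libraries were named after their values were seen. The alternatives are in the closing section. DMTN has no promoter sequence here, and no protein sequence was used.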

Additional observations from a re-analysis of the deposited data

Results flagged for a closer look

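NEURL3, CD300LB, DMTN and the listed related genes were searched for opposite directions between Control and Bru in U251 and U87. This held for 3 of them, with the exact counting interval of the ratio away from 1 in each line. The rest of the series was not searched in this way, so no share over all genes is given. With 1 library per condition, the difference between the lines was not tested. The log2 ratio of DMTN was -0.59 in U251 and 2.72 in U87. EPB41L1, a relative of protein 4.1, had 0.39 in U251 and -0.36 in U87. MPP1, a membrane protein of the erythrocyte skeleton, had 0.35 in U251 and -0.23 in U87.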

How the results depend on the processing

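No paired analysis was possible because the groups compared share fewer than 2 replicate numbers, with 1 library per condition, and for the same reason no library could be left out within a line. A fit over both lines with the line as a block was not made. None of the 6 ratios of the 3 genes reversed, but 4 of them have 0 reads in Control, so that no alternative could turn them. A pseudocount of 1 put the log2 ratio of NEURL3 at 1.37 in U251 and 1.15 in U87 and that of CD300LB in U87 at 2.63. With a pseudocount of 0.01 these were 7.31, 6.94 and 9.02, and on TPM, where the same pseudocount is smaller beside the values, 5.92, 5.46 and 7.52. The ratios of genes at 0 reads are set by the pseudocount.

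In U251 the counts of genes with a log2 ratio above 1 and below -1 were 197 and 419 with a pseudocount of 1, 2424 and 2539 with no filter, and 1782 and 1945 with a minimum mean of 0.1 FPKM. In U87 they were 113 and 77, 2531 and 1804, and 1627 and 1174. Among related genes, the count above 1 in U251 was 1 with no filter and 1 with the minimum of 0.1 FPKM, and the count below -1, which was 2, was 0 with a pseudocount of 1 and 3 with a pseudocount of 0.01, on TPM and with the total without mitochondrially encoded genes. In U87 it was 2 above 1 with no filter, and below -1 it was 1 with no filter and 1 with the minimum of 0.1 FPKM. Their median log2 ratio in U87 was 0.0201 with the median of all genes set to 0.

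The genes switched on in U251 and U87 numbered 9 and 12 with a Control level under 0.1 FPKM, 107 and 72 with a Bru level of at least 0.5 FPKM, 8 and 12 at 10-fold, 17 and 14 among protein-coding genes only, and 92 and 64 on TPM. NEURL3 in both lines and CD300LB in U87 met each of these rules. DMTN in U87 met the rule with a Bru level of at least 0.5 FPKM and on TPM. A rescaling to the total reads on genes, added after the data were seen, gave 66 and 43. At these depths, levels of 3 reads or fewer, such as those of DMTN in U87 Control and CD300LB in U251 Bru, are at or under the floor.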
